A study of Danio rerio with 13 samples.

Results

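Iron is moved, stored and released by a small set of proteins, and the transcripts of 10 of their genes were described in whole zebrafish larvae. The genes are those of transferrin (tfa), hemopexin (hpxa), haptoglobin (hp), 3 ferritin heavy chains (fth1a, fthl27 and fthl29), the transferrin receptors tfr1a and tfr1b, the iron exporter ferroportin (slc40a1) and the iron hormone hepcidin (hamp). They were selected by symbol from a table of 32417 entries with 31681 distinct symbols. The list was chosen from results on these same libraries, with the fold changes of all 3 comparisons known. Levels and fold changes of these genes are therefore given as a description, without a test. A wider iron list and lists of cell type markers were also chosen with earlier results of these data known. Their calls and p-values are given, but describe these libraries only. The 10 symbols stand in 12 entries, because hp and fthl27 each occur in 2 rows. Of the 12 entries, 10 passed the filter on low counts; the first hp row and hamp did not. The later entry of a repeated symbol is called its second row.

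All libraries came from larvae of the Tg(fli1:EGFP) line, in which the fli1 promoter labels endothelial cells. There were 5 libraries of wild-type, untreated larvae, 3 of untreated larvae with the genotype aldh3b1-/- made by CRISPR, and 5 of wild-type larvae given 2-HD. The labels leave 2-HD unexplained and state no dose, duration, age, clutch, number of mutant lines or vehicle, so the vehicle and the agent cannot be told apart. Libraries are named by group and by the number in their description; 1 wild-type library is numbered 1 in its title and 3 in its description. The labels do not state whether libraries in a group are separate pools of animals. The p-values then reflect only how much these libraries differ, a spread that may be technical.

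Transferrin carries ferric iron in plasma and delivers it to cells through transferrin receptor 1, while hemopexin and haptoglobin bind haem and haemoglobin set free from red cells. These plasma proteins come mainly from the liver. Inside cells iron is held in ferritin shells and leaves through ferroportin, which hepcidin, a liver peptide, removes from the cell surface. In zebrafish, tfr1a serves developing red cells, and loss of slc40a1, the gene mutated in weissherbst, causes anaemia.

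Library totals ranged from 17975289 to 19482661 counts. Levels are in CPM, counts scaled to library size with TMM factors, and are not divided by transcript length, so they compare libraries and not genes. A count of 0 allows up to 3 counts, or 0.148 to 0.173 CPM, for counting error only. The targeted gene aldh3b1 lay at 4.62 to 7.45 CPM in wild type and 4.49 to 5.59 CPM in the knockout. These ranges overlap, so its transcript does not check the knockout labels. Wild type replicate 14 and 2-HD replicate 1 were set apart from the other libraries in earlier results, and counts are given with and without them.

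Fold changes come from an edgeR quasi-likelihood fit to all 13 libraries and 22158 entries, with a threshold of 0.05 on the Benjamini-Hochberg adjusted p over all entries. With 2-HD, 8 of the 10 entries that passed the filter were past this threshold against wild type, 7 of them higher and 1 lower. Of all entries 42.4% were past it, 5030 higher and 4368 lower. The entries not past it were fth1a and the second hp row. In the knockout 0 of the 10 were past the threshold, against 5.97% of all entries. At an unadjusted edgeR p under 0.05, 3 of the 10 were higher and 0 lower. Among all 22158 entries 2980 were higher and 2508 lower at that p. DESeq2 put 2 of the 10 past the threshold, and 2406 of all entries. Between knockout and 2-HD, 4 of the 10 were past it in the edgeR fit, with 6.98% of all entries. These were tfa, hpxa and fthl29, lower in the knockout, and fthl27, higher. Since the genes were chosen with these comparisons known, and both comparisons with wild type share its 5 libraries, nothing is read from the counts. Without wild type replicate 14 and 2-HD replicate 1 they were 8, 0 and 4 in the same order. Over the 22008 entries of that fit, 9514, 1373 and 3494 were past the threshold. With all libraries 9398, 1322 and 1547 were.

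**Figure D1:**
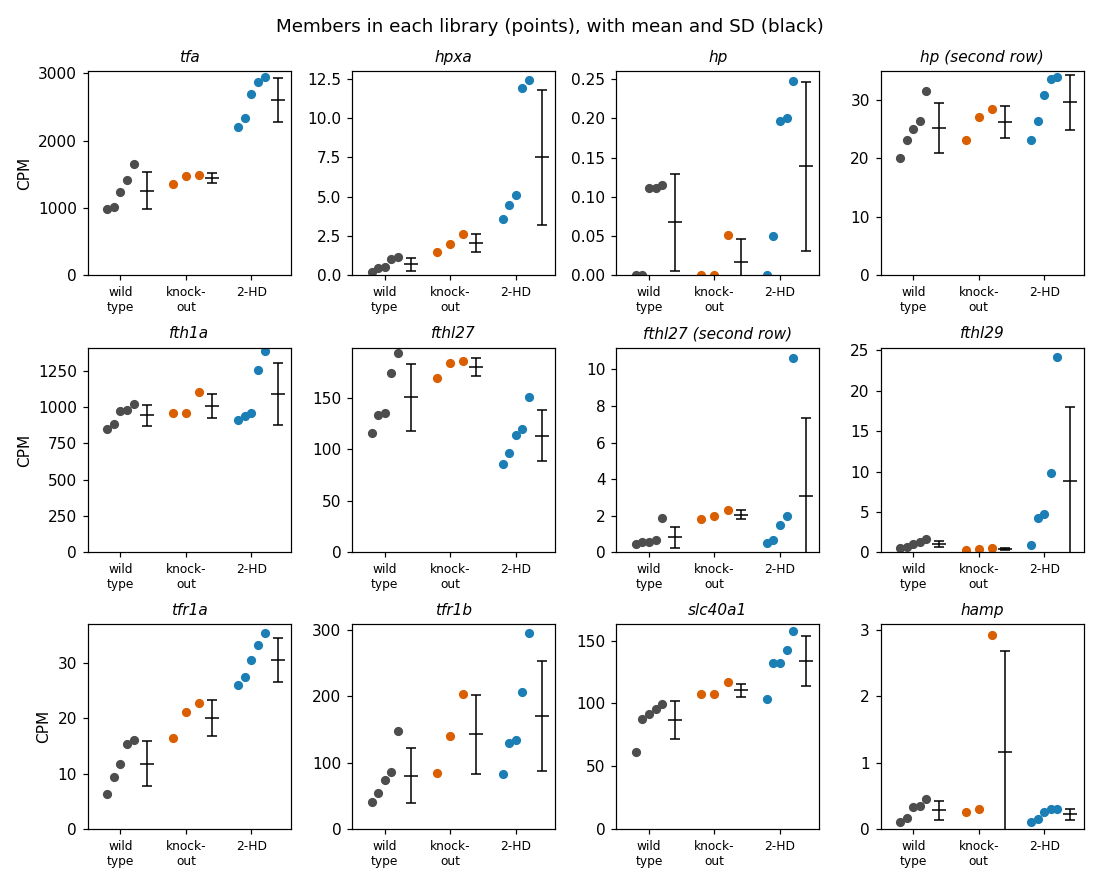
Each panel plots 1 entry, with CPM on a linear axis from 0 and 1 point per library, sorted by level within a group. The black mark and bar are the group mean and SD, the bars ending at 0. For tfa, hpxa and tfr1a every 2-HD library lies above every wild-type library, whereas the levels of fth1a and the second hp row overlap between all 3 groups.

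Among the plasma carriers, transferrin gave the highest counts and hemopexin the largest ratio between groups. Expression of tfa was 1648, 1230.4, 1015, 983 and 1420.0 CPM in wild type replicates 3, 5, 10, 13 and 14. It was 1353, 1480.0 and 1484 CPM in knockout replicates 2, 3 and 7, and 2205, 2939, 2332, 2687 and 2877 CPM in 2-HD replicates 1 to 5. All 2-HD libraries lay above all others, and all knockout libraries lay within the wild-type range. The log2 fold change was 1.05 (SE 0.13) with 2-HD and 0.19 (SE 0.15) in the knockout. The group means were 1259 ± 279.7 CPM (SD, n = 5), 1439 ± 74.4 CPM (n = 3) and 2608 ± 327 CPM (n = 5) for wild type, knockout and 2-HD.

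Hemopexin keeps free haem from harming membranes and carries it to the liver. In wild type, hpxa was close to the limit of detection, at 1.18, 0.544, 1.06, 0.446 and 0.231 CPM in replicates 3, 5, 10, 13 and 14, which were 4 to 22 counts. Knockout replicates 2, 3 and 7 had 1.49, 2.00 and 2.66 CPM (29 to 51 counts). The 3 groups did not overlap, with the knockout between the other two. With 2-HD the levels were 5.11, 11.9, 4.49, 12.4 and 3.62 CPM in replicates 1 to 5, replicates 2 and 4 being the highest of all libraries. The log2 fold change of hpxa was 3.42 (SE 0.44) with 2-HD and 1.55 (SE 0.53) in the knockout. Libraries that do not overlap between the groups were found for 4 of the 10 entries with 2-HD (25.7% of all entries) and for 4 of the 10 in the knockout (15.5% of all entries). With 2-HD these were tfa, hpxa, tfr1a and slc40a1, all higher. In the knockout they were hpxa, tfr1a and slc40a1, all higher, and fthl29, lower. Between knockout and 2-HD, 1 of the 10 was higher in the knockout without overlap and 4 were lower. Among all 22158 entries 1987 were higher and 1955 lower without overlap. The share of all entries with all 3 groups apart was not counted.

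The hemopexin paralogue hpxb, which was no member, did not pass the test in either comparison. Its means were 11.1 CPM in wild type, 14.3 CPM in the knockout and 11.9 CPM with 2-HD, with adjusted p-values of 0.238 for the knockout and 0.636 for 2-HD. Whether hpxa and hpxb differed in response was not tested.

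Haptoglobin binds haemoglobin dimers. The first hp row had 0 to 5 counts in every library, and no fold change is given for it. The second row had 31.5, 23.1, 20.0, 26.4 and 24.9 CPM in wild type replicates 3, 5, 10, 13 and 14. It had 23.2, 27.1 and 28.4 CPM in knockout replicates 2, 3 and 7, and 26.4, 33.6, 23.1, 33.9 and 30.8 CPM in 2-HD replicates 1 to 5. The groups overlapped throughout. Log2 fold changes were 0.06 (SE 0.15) in the knockout and 0.23 (SE 0.13) with 2-HD.

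Liver marker genes were read beside these carriers. In whole larvae, more cells of a type and more RNA per cell cannot be told apart. Of 19 hepatocyte marker genes with an entry, 15 rose with 2-HD and 0 fell. This is 78.9% called beside 42.4% of all entries, with a median log2 fold change of 0.70 beside 0.02. In the knockout 2 rose and 0 fell, which is 10.5% called beside 5.97% of all entries (median 0.33 beside 0.00). At an unadjusted edgeR p under 0.05, 9 were higher and 0 lower in the knockout. Among all 22158 entries 2980 were higher and 2508 lower at that p. No marker fell by edgeR in either comparison, also at an unadjusted p under 0.05. The lipid carrier gene fabp10a did not pass the test with 2-HD (419 to 533 CPM, adjusted p = 0.0934), and the apolipoprotein gene apoa2 rose from 1289 to 1849.5 CPM (adjusted p = 0.00197). Summed over the list, the markers gave 3762 to 5764 CPM in wild type, 6098 to 7789 CPM in the knockout and 7224 to 8292 CPM with 2-HD. No marker was at 0 in any library. The apolipoprotein genes apoa2 and apobb.1 had the highest means of the list in each group and weigh most in this sum. In wild type, knockout and 2-HD, apoa2 had 1289, 1622 and 1849.5 CPM and apobb.1 had 1240, 1966 and 2468 CPM.

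Set against this sum, the carriers differed among themselves. For each 100 CPM of hepatocyte markers there were 25.0 ± 3.55 CPM of tfa in wild type, 21.8 ± 2.62 CPM in the knockout and 33.2 ± 3.76 CPM with 2-HD (SD, n = 5, 3 and 5). The 2-HD range of 28.1 to 36.9 overlapped the wild-type range of 19.7 to 29.5. For hpxa the quotients were 0.0138 ± 0.00718, 0.0304 ± 0.00537 and 0.0960 ± 0.0548, and the ranges of the 3 groups did not overlap. For the second hp row they were 0.512 ± 0.124, 0.396 ± 0.0431 and 0.378 ± 0.0624, with overlapping ranges. The part of the liver markers in the levels of tfa and hpxa was not tested beyond these quotients.

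**Figure D2:**
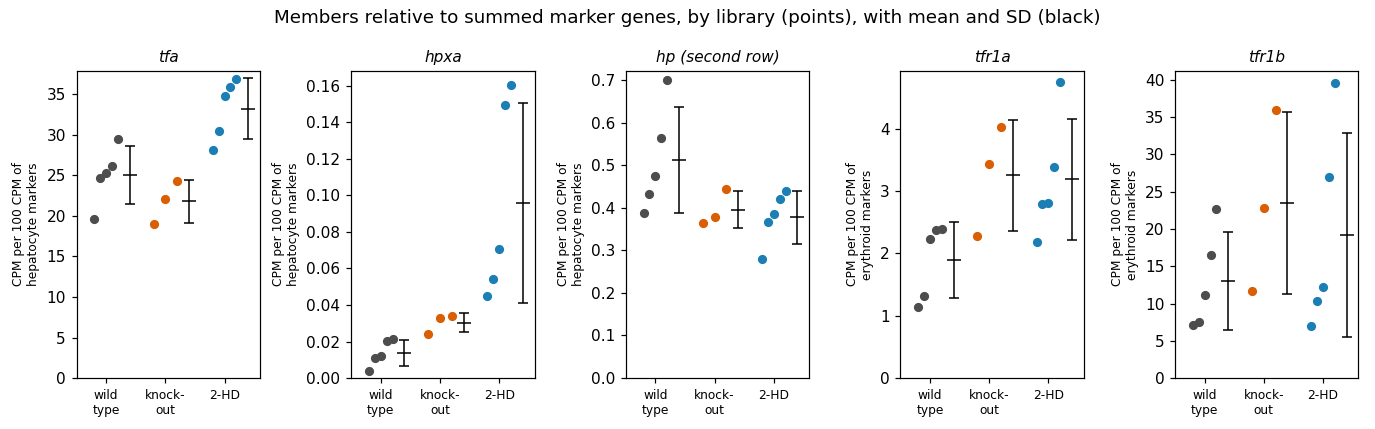
Each panel gives 1 member in CPM per 100 CPM of the summed hepatocyte markers (tfa, hpxa, second hp row) or erythroid markers (tfr1a, tfr1b) on a linear axis from 0. Points are libraries and the black marks and bars are group means and SDs. Relative to the liver markers hpxa lies in 3 separate ranges, while tfa of 2-HD lies at 28.1 to 36.9 and meets the upper end of wild type at 29.5.

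The ferritin heavy chain oxidises iron as it enters the ferritin shell. Expression of fth1a, the common heavy chain gene, was 1024, 977, 982, 848 and 884 CPM in wild type replicates 3, 5, 10, 13 and 14. It was 1103, 958 and 958 CPM in knockout replicates 2, 3 and 7, and 939, 911, 1255, 963 and 1384 CPM in 2-HD replicates 1 to 5. Replicates 3 and 5 of 2-HD stood above all other libraries and the other 3 lay within the wild-type range. Log2 fold changes were 0.21 (SE 0.11) with 2-HD and 0.09 (SE 0.13) in the knockout. Its paralogue fth1b, from the wider list, fell with 2-HD from 31.4 to 26.0 CPM (log2 fold change -0.27, adjusted p = 0.0175).

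The other ferritin members belong to a row of heavy-chain-like genes. In the protein-coding gene order of RefSeq assembly GRCz12tu, fthl27, fthl28, fthl30, fthl31 and fthl29 are 5 consecutive genes on chromosome 3. The targeted gene aldh3b1 lies on the same chromosome, 75 to 79 genes away in that order, and 0 of the 8 other members do. The order of the build used for counting was not used here. Because the copies resemble each other and fthl27 and fthl31 each have 2 rows, reads may be divided among them in ways that the counting does not show, and single rows are uncertain.

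The first row of fthl27 was the most highly counted of the row. It had 116, 136, 174, 133 and 193 CPM in wild type replicates 3, 5, 10, 13 and 14, and 184, 169.6 and 186 CPM in knockout replicates 2, 3 and 7. In 2-HD replicates 1 to 5 it had 151, 85.6, 114, 96.7 and 119.8 CPM. Both groups overlapped with wild type, and all 2-HD libraries lay below all knockout libraries. Its log2 fold change was -0.41 (SE 0.15) with 2-HD, the only negative value among the 10 entries in that comparison, and 0.26 (SE 0.17) in the knockout. With 2-HD it was not past the threshold when scaled by library totals alone or with only the 2 groups fitted. With the replicate number as a block it was not past it either. The same held without wild type replicate 10 or 14, any 1 knockout library or any 1 of 2-HD replicates 2 to 5. Its sign was kept throughout.

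The second row of fthl27 was low and uneven. It lay at 0.537, 1.85, 0.670, 0.446 and 0.578 CPM in wild type replicates 3, 5, 10, 13 and 14, at 2.31, 2.00 and 1.83 CPM in knockout replicates 2, 3 and 7, and at 0.516, 0.690, 1.99, 1.51 and 10.6 CPM in 2-HD replicates 1 to 5. A single library, 2-HD replicate 5, held most of the 2-HD signal, and wild type replicate 5 alone among the wild types reached the knockout levels. The log2 fold change of 1.90 (SE 0.72) with 2-HD was 0.52 without 2-HD replicate 5. In the knockout it was 1.31 (SE 0.83).

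Counts of fthl29 were low in wild type and lower still in the knockout. It was 1.24, 1.58, 0.558, 1.06 and 0.693 CPM in wild type replicates 3, 5, 10, 13 and 14, or 10 to 29 counts. Knockout replicates 2, 3 and 7 had 0.256, 0.359 and 0.522 CPM (5 to 10 counts), all below wild type, the gap to the lowest wild-type library being small. In 2-HD replicates 1 to 5 it had 0.877, 4.29, 9.82, 4.77 and 24.1 CPM, so that replicate 1 alone lay within the wild-type range. The log2 fold change was 3.09 (SE 0.65) with 2-HD, or 2.26 without replicate 5, and -1.43 (SE 1.05) in the knockout.

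Neighbours of fthl29 in the row, taken from the wider list, showed part of the same picture. With 2-HD, fthl28 rose from 8.81 ± 4.23 to 28.9 ± 27.0 CPM (SD, n = 5 and 5), or by 1.71 (SE 0.61) on the log2 scale, with an edgeR adjusted p of 0.0344. By library, fthl28 had 12.6, 11.0, 8.15, 10.5 and 1.79 CPM in wild type replicates 3, 5, 10, 13 and 14, and 2.43, 18.6, 26.9, 22.2 and 74.4 CPM in 2-HD replicates 1 to 5. The low libraries of both groups were wild type replicate 14 and 2-HD replicate 1, and the call was lost without 2-HD replicate 3 or 5 and without wild type replicate 10, 13 or 14 (adjusted p up to 0.161). Without 2-HD replicate 5 its log2 fold change was 0.99. In the knockout fthl28 had 1.79, 2.82 and 4.54 CPM, a log2 fold change of -1.53 (SE 0.82) that was not called (adjusted p = 0.267), and it was lower in the knockout than with 2-HD (-3.24, adjusted p = 0.0339), a call lost with only these groups fitted and without any 1 knockout library or 2-HD replicate 3, 4 or 5 (adjusted p up to 0.117). Both rows of fthl31 rose with 2-HD, the first from 4.70 ± 1.28 to 9.61 ± 5.77 CPM (adjusted p = 0.0156) and the second from 0.289 ± 0.146 to 1.19 ± 0.874 CPM (adjusted p = 0.00727). Each row overlapped with wild type and was highest in 2-HD replicate 5, at 19.5 and 2.58 CPM. Without that library the log2 fold changes of 1.03 and 2.02 were 0.60 and 1.52, and both calls were kept. The second row had 1 to 8 counts in wild type.

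The remaining gene of the row, fthl30, was called in the knockout. It had 2.42, 3.54, 4.24, 1.95 and 2.19 CPM in wild type replicates 3, 5, 10, 13 and 14 and 5.33, 6.10 and 8.55 CPM in knockout replicates 2, 3 and 7, without overlap. On the log2 scale the difference was 1.21 (SE 0.27), with an edgeR adjusted p of 0.0239. With 2-HD the mean was 3.98 CPM and the difference from wild type did not pass the test (0.47, adjusted p = 0.130). The knockout call was lost without knockout replicate 3 or 7 and without wild type replicate 13, and with only these 2 groups in the fit. In the knockout fthl30 was higher, and fthl29, with 5 to 10 counts, was lower than in every wild-type library. The other entries of the row (fthl28 and both rows of fthl27 and fthl31) overlapped between knockout and wild type. Of all entries, 15.5% did not overlap in this comparison. All genes of the row lie on the chromosome of aldh3b1. The part of that position in either difference was not tested.

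**Figure D3:**
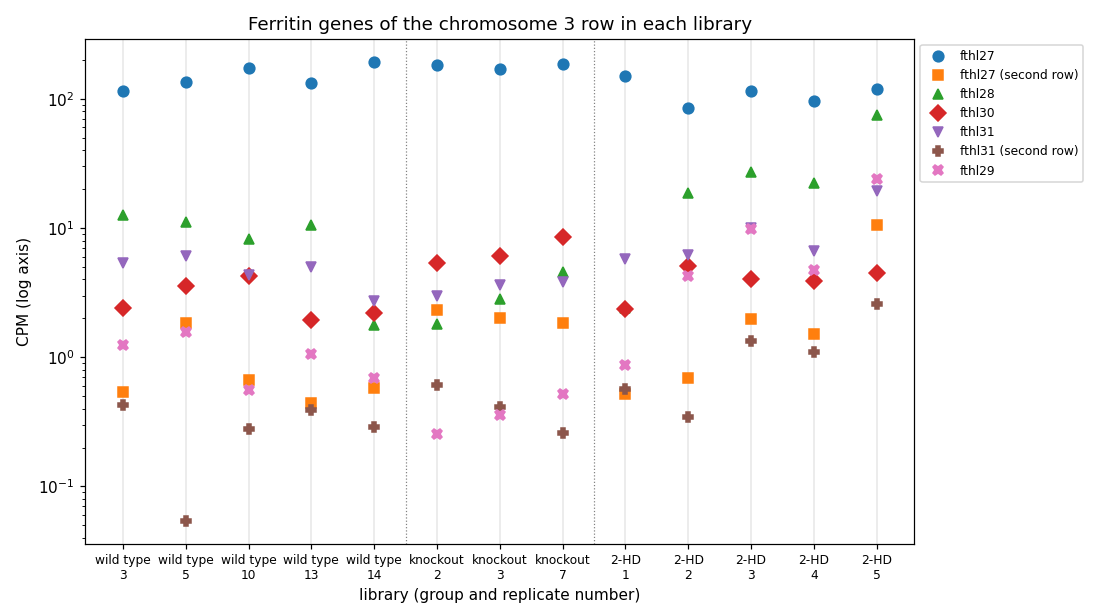
The plot shows CPM on a log axis for the 7 entries of the 5 ferritin genes in the row on chromosome 3, in each of the 13 libraries, with dotted lines between the groups. In 2-HD replicate 5, fthl28 (74.4 CPM), fthl29 (24.1 CPM), fthl31 (19.5 CPM) and the second row of fthl27 (10.6 CPM) reach their highest values, whereas the first row of fthl27 (119.8 CPM) does not.

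Within groups, several ferritins moved together from library to library, and others in opposite directions. After each group's mean was subtracted, Pearson's r over the 13 libraries was 0.88 between fthl28 and fthl29, 0.83 between fthl29 and fthl31, 0.82 between fthl29 and the second row of fthl27, and 0.80 between that row and fth1a. The first row of fthl27 had an r of -0.59 with fthl28 and -0.38 with fthl29. Between fth1a and fth1b it was -0.59. These libraries share 3 groups, a few of them weigh heavily, and similar copies may exchange reads, so the values are descriptive. Expression of fthl28 was 74.4 CPM in 2-HD replicate 5, but 2.43 CPM in 2-HD replicate 1 and 1.79 CPM in wild type replicate 14. In 2-HD replicate 1 and wild type replicate 14 the first row of fthl27 was highest of its group (151 and 193 CPM). Pearson's r without these libraries was not computed. Of 15953 other entries whose mean log2 CPM reached 1 and whose symbol was no clone or placeholder name, those most like fthl29 by this measure were bcap31 (0.96) and dnajc3b (0.96). The entry named for fth1a was casp8 (0.93). For the first row of fthl27 they were elp4 (0.95) and h2ax (0.93), and for its second row park7 (0.93) and stm (0.92).

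Transferrin receptor 1 takes up iron-laden transferrin, and both zebrafish copies were higher on average in knockout and 2-HD than in wild type. Expression of tfr1a was 15.4, 16.1, 9.33, 6.35 and 11.8 CPM in wild type replicates 3, 5, 10, 13 and 14. It was 22.8, 21.1 and 16.5 CPM in knockout replicates 2, 3 and 7, and 33.2, 30.5, 35.5, 27.4 and 26.1 CPM in 2-HD replicates 1 to 5. The 3 groups did not overlap, although knockout replicate 7 lay just above wild type replicate 5. For tfr1a the log2 fold change was 0.77 (SE 0.22) in the knockout and 1.37 (SE 0.20) with 2-HD.

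The copy tfr1b is counted more and varied more. It had 147, 74.6, 53.6, 40.2 and 86.7 CPM in wild type replicates 3, 5, 10, 13 and 14. It had 204, 140.2 and 84.2 CPM in knockout replicates 2, 3 and 7, and 82.8, 134, 295, 129.7 and 207 CPM in 2-HD replicates 1 to 5. All 3 groups overlapped: wild type replicate 3 lay above 5 of the 8 libraries of the other groups, and 2-HD replicate 1 lay below wild type replicate 14. Log2 fold changes were 0.83 (SE 0.41) in the knockout and 1.08 (SE 0.37) with 2-HD.

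Red cell genes were given beside the receptors. Of 12 erythroid markers that passed the filter, 9 rose with 2-HD and 0 fell (75.0% called beside 42.4% of all entries; median log2 fold change 0.72 beside 0.02), and in the knockout edgeR called 0 (median 0.13; 2 higher and 1 lower at an unadjusted p under 0.05). With 2-HD the haem synthesis gene alas2 rose from 21.6 to 48.2 CPM (adjusted p = 0.000385) and the band 3 gene slc4a1a from 25.3 to 71.1 CPM (adjusted p = 6.73e-05). The summed markers gave 527 to 709 CPM in wild type, 565 to 723 CPM in the knockout and 747 to 1250.1 CPM with 2-HD. The globin entry hbbe3, which did not pass the filter, was at 0 in 6 libraries and no other marker was at 0. Per 100 CPM of these markers, tfr1a stood at 1.89 ± 0.614 CPM in wild type, 3.25 ± 0.893 CPM in the knockout and 3.19 ± 0.971 CPM with 2-HD (SD, n = 5, 3 and 5), with overlapping ranges. For tfr1b the quotients were 13.0 ± 6.59, 23.5 ± 12.2 and 19.2 ± 13.7, again overlapping. The part of the red cell markers in the receptor levels was not tested.

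By the likeness measure used for the ferritins, tfr1a was closest to eef2a.2 (0.90) and spag6 (0.89), and tfr1b to prdm2b (0.94) and exosc2 (0.94). The closest to tfa were igfbp2b (0.89) and lix1l (0.89), those to hpxa krt1-19d (0.90) and ky (0.89), and those to the second hp row PSTK (0.93) and edar (0.85). With 15953 entries searched over 13 libraries, values of this size are a ranking and no more.

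Ferroportin is the iron exporter of cells and is rich in gut, macrophages and liver. Expression of slc40a1 was 95.7, 99.4, 91.8, 61.1 and 87.6 CPM in wild type replicates 3, 5, 10, 13 and 14. Knockout replicates 2, 3 and 7 had 117, 107 and 108 CPM, and 2-HD replicates 1 to 5 had 104, 132, 158, 132 and 142 CPM. Both groups lay above every wild-type library, and 2-HD replicate 1 alone of its group did not lie above the knockout. For slc40a1 it was 0.34 (SE 0.14) on the log2 scale in the knockout and 0.62 (SE 0.13) with 2-HD. Within groups it was closest to slc22a16 (0.95) and sult1st6 (0.91), and its r with tfr1b was 0.77.

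Markers of macrophages and enterocytes were read beside slc40a1. With 2-HD, 5 of 11 macrophage markers rose and 0 fell (45.5% called beside 42.4% of all entries; median log2 fold change 0.29), among them mpeg1.1 (3.25 to 5.25 CPM, adjusted p = 0.0212) and mpeg1.2 (5.01 to 17.8 CPM, adjusted p = 4.04e-05), both genes of a pore-forming protein of macrophages. In the knockout 1 of the 11, mpeg1.2, rose and 0 fell (median 0.06; 3 higher and 2 lower at an unadjusted p under 0.05). Their summed level was 32.3 to 51.5 CPM in wild type, 42.2 to 64.2 CPM in the knockout and 59.4 to 73.8 CPM with 2-HD, with 1 marker at 0 in 1 library. Of 10 enterocyte markers 5 rose with 2-HD and 0 fell (median log2 fold change 0.46). This is 50% called beside 42.4%, but among all 22158 entries 5030 rose and 4368 fell. In the knockout edgeR called 0 enterocyte markers (median 0.40), with 4 higher and 0 lower at an unadjusted p under 0.05. The fatty acid binding protein genes fabp2 and fabp6 had adjusted p-values of 0.851 and 0.683 with 2-HD. Enterocyte markers summed to 1942 to 2816 CPM in wild type, 2328 to 3074 CPM in the knockout and 2797 to 3447 CPM with 2-HD, none at 0. The part of these cells in the level of slc40a1 was not tested.

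Hepcidin lowers ferroportin at the cell surface and is made by hepatocytes in answer to iron load and inflammation. Transcripts of hamp were near the limit of detection, with 2 to 8 counts in wild type and 2 to 6 counts with 2-HD. Knockout replicates 2 and 3 had 0.256 and 0.308 CPM, within the wild-type range of 0.107 to 0.446 CPM. Knockout replicate 7 had 2.92 CPM, or 56 counts, and stood above all other libraries. Since 1 of 3 libraries carried this level, the knockout mean of 1.16 ± 1.52 CPM (SD, n = 3) describes no library.

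**Figure D4:**
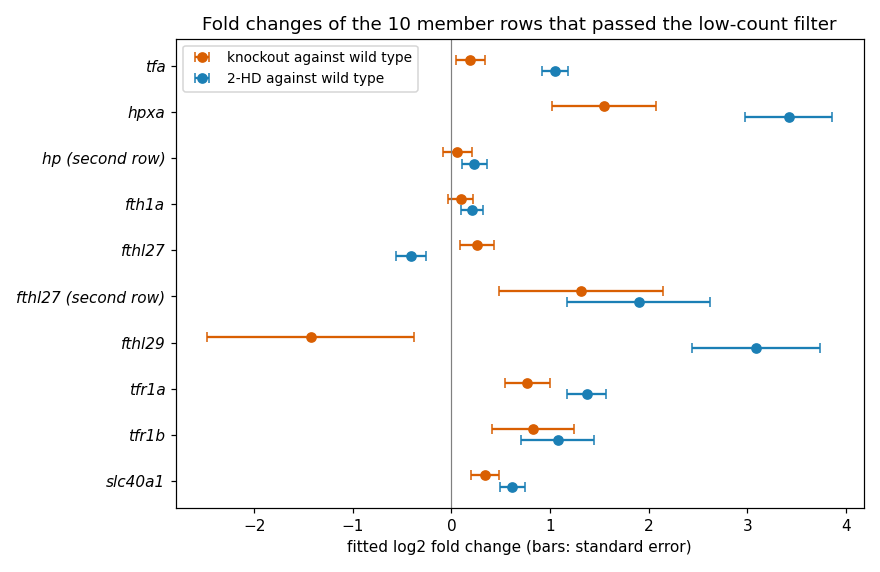
The plot gives the fitted log2 fold change of the 10 entries that passed the filter, with its standard error as a bar, for knockout (orange) and 2-HD (blue) against the same 5 wild-type libraries. With 2-HD, hpxa (3.42) and fthl29 (3.09) lie farthest to the right and fthl27 (-0.41) alone lies left of 0, and in the knockout fthl29 (-1.43) alone lies left of 0.

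Other genes of iron and haem handling were taken from a list of 65 symbols. Of these 56 had an entry, and 57 entries passed the filter. This list was chosen with earlier results of these data known, so its calls, shares and p-values are descriptive. With 2-HD the test called 23 higher and 7 lower and left 27 uncalled, which is 52.6% called beside 42.4% of all entries, with a median log2 fold change of 0.20 beside 0.02. Scaled by library totals alone, which moved the median of all entries to 0.12, the split was 26 higher and 4 lower. In the knockout the test called 4 higher and 0 lower and left 53 uncalled. This is 7.02% called beside 5.97%, with a median of 0.04 beside 0.00. By edgeR at an unadjusted p under 0.05, 8 were higher and 7 lower, with 2980 higher and 2508 lower among all entries. DESeq2 called 5 higher and 2 lower, with 1348 higher and 1058 lower among all entries. Without wild type replicate 14 and 2-HD replicate 1, 25 rose and 9 fell with 2-HD, and 6 rose and 1 fell in the knockout. Over all entries of that fit 4757 rose and 4757 fell with 2-HD, and 886 rose and 487 fell in the knockout.

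Genes of iron uptake had 3 of 8 higher and 1 lower with 2-HD, a share called near the 42.4% of all entries. Expression of tfr2, the second transferrin receptor, which senses iron in hepatocytes, rose from 2.77 ± 1.17 to 8.36 ± 1.76 CPM (SD, n = 5 and 5; adjusted p = 0.000290), a log2 fold change of 1.59. The endosomal ferrireductase gene steap3 rose from 1.01 ± 0.180 to 2.59 ± 0.330 CPM (adjusted p = 0.000123), and slc39a14, whose protein takes up iron not bound to transferrin in mammals, from 2.76 ± 0.280 to 5.10 ± 0.470 CPM (adjusted p = 0.000203). For each of the 3 the 2-HD libraries lay above all wild-type libraries. In the knockout steap3 (1.01 CPM) and slc39a14 (2.78 CPM) did not pass the test against wild type and were lower than with 2-HD (adjusted p = 0.0115 and 0.0132), calls lost without knockout replicate 3 for steap3 and without knockout replicate 2 for slc39a14. Of 5 plasma carriers and receptors, 2 were called with 2-HD, both higher, and 0 in the knockout. The share called with 2-HD was near the 42.4% of all entries, which hold rises and falls. The 2 were cp, of the ferroxidase ceruloplasmin (70.2 ± 25.4 to 107.8 ± 9.13 CPM, adjusted p = 0.0147), and ambp, of a haem-binding plasma protein (58.2 ± 13.1 to 84.6 ± 7.30 CPM, adjusted p = 0.00854).

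Among regulators, aco1 encodes cytosolic aconitase, which without its iron-sulphur cluster binds the messages of ferritin and transferrin receptor. It was called in both comparisons with wild type, which share their controls. By library it had 28.6, 22.7, 19.8, 15.2 and 20.4 CPM in wild type replicates 3, 5, 10, 13 and 14. It had 32.8, 38.4 and 42.5 CPM in knockout replicates 2, 3 and 7 and 49.9, 55.5, 58.1, 50.8 and 57.4 CPM in 2-HD replicates 1 to 5. The 3 groups did not overlap, with the knockout between wild type and 2-HD. For aco1 the log2 fold change was 0.83 (SE 0.15, edgeR adjusted p = 0.0136) in the knockout and 1.35 (SE 0.13, adjusted p = 4.01e-05) with 2-HD.

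The regulator epas1a, of the hypoxia-inducible factor 2 alpha, rose from 64.3 ± 15.8 CPM to 106 ± 8.37 CPM in the knockout (adjusted p = 0.0353) and to 130.0 ± 21.8 CPM with 2-HD (adjusted p = 0.000248). Its paralogue epas1b had means of 54.3 CPM in wild type, 62.8 CPM in the knockout and 58.7 CPM with 2-HD. It was not called in either comparison (edgeR adjusted p = 0.339 for the knockout and 0.445 for 2-HD). Expression of ireb2, of iron regulatory protein 2, which binds iron-responsive elements in messages, rose with 2-HD from 31.6 to 38.6 CPM (log2 fold change 0.29, adjusted p = 0.00436). In all, 3 of 9 regulators rose and 1 fell with 2-HD (44.4% called beside 42.4% of all entries), and 2 rose in the knockout. The ferroxidase gene hephl1a, 1 of 2 of its kind measured, rose with 2-HD from 4.12 ± 1.03 to 8.43 ± 2.10 CPM (adjusted p = 0.00109).

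Of 15 genes of haem transport and breakdown, 7 rose with 2-HD and 0 fell, which is 46.7% called beside 42.4% of all entries. Among all 22158 entries 5030 rose and 4368 fell. The 7 were the breakdown genes hmox1a, hmox2b, blvra and blvrb, the transporter gene flvcr2b and the haem-binding protein genes pgrmc1 and hebp2. Haem oxygenase 1, the inducible enzyme that opens the haem ring, is encoded by hmox1a, which rose from 7.39 ± 2.49 to 14.2 ± 1.80 CPM (log2 fold change 0.94, adjusted p = 0.00423). Biliverdin reductase, the next step, is encoded by blvra, which rose from 2.09 ± 0.471 to 3.86 ± 0.448 CPM (adjusted p = 0.000607). Expression of hmox2b, of the second haem oxygenase, rose from 5.95 ± 1.01 CPM to 8.80 ± 1.18 CPM in the knockout (adjusted p = 0.0319) and to 10.5 ± 0.739 CPM with 2-HD (adjusted p = 0.000153). Its paralogue hmox2a was counted more and had negative fold changes that were not called. Means of hmox2a were 27.8 CPM in wild type, 22.5 CPM in the knockout and 23.3 CPM with 2-HD. The edgeR adjusted p-values of hmox2a were 0.121 for the knockout and 0.0525 for 2-HD. In the knockout hmox1a did not pass the test (10.2 ± 3.93 CPM, adjusted p = 0.292). Its knockout libraries ranged from 6.92 to 14.6 CPM, and its 2-HD libraries from 12.2 to 16.3 CPM.

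Mitochondrial iron genes had 3 of 9 higher and 1 lower with 2-HD, again 44.4% called, and 0 called in the knockout. The mitochondrial iron importer gene of red cells, slc25a37, rose from 0.687 ± 0.231 to 1.41 ± 0.299 CPM (adjusted p = 0.00584). Its wild-type libraries had 5 to 15 counts. The scaffold gene iscub, of iron-sulphur cluster assembly, fell from 14.5 ± 2.81 to 7.85 ± 1.07 CPM (log2 fold change -0.89, adjusted p = 0.000291). In storage and chaperoning 4 of 9 rose and 4 fell with 2-HD, which is 88.9% called beside 42.4% of all entries. The rises were those of fthl28, both fthl31 rows and ncoa4, whose protein sends ferritin to the lysosome (68.9 to 92.4 CPM, adjusted p = 0.000273). The falls were those of fth1b, pcbp2, pcbp3 and pcbp4. The fthl28 and fthl31 entries may share reads, and each was highest in 2-HD replicate 5. They may therefore not count as separate entries in this share, and the fthl28 call was lost without certain single libraries.

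All 4 knockout calls of the wider list (fthl30, aco1, epas1a and hmox2b) were lost without knockout replicate 3, without knockout replicate 7 and with only the 2 groups in the fit. The calls of epas1a and hmox2b were also lost without wild type replicate 10 or 14. Between knockout and 2-HD, 7 of 57 were lower in the knockout and 0 higher (3 higher at an unadjusted edgeR p under 0.05), or 12.3% beside 6.98% of all entries. The number called was 1 without knockout replicate 2 or 3, 2 without knockout replicate 7 or 2-HD replicate 3, and 4 without 2-HD replicate 4 or 5. Without 2-HD replicate 1 it was 14, of which 13 were lower in the knockout and 1 higher. Calls over all entries moved too, from 1547 to 231 without knockout replicate 2, 81 without knockout replicate 3, 409 without knockout replicate 7, 576, 624 and 581 without 2-HD replicates 3, 4 and 5, and 3229 without 2-HD replicate 1.

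**Figure D5:**
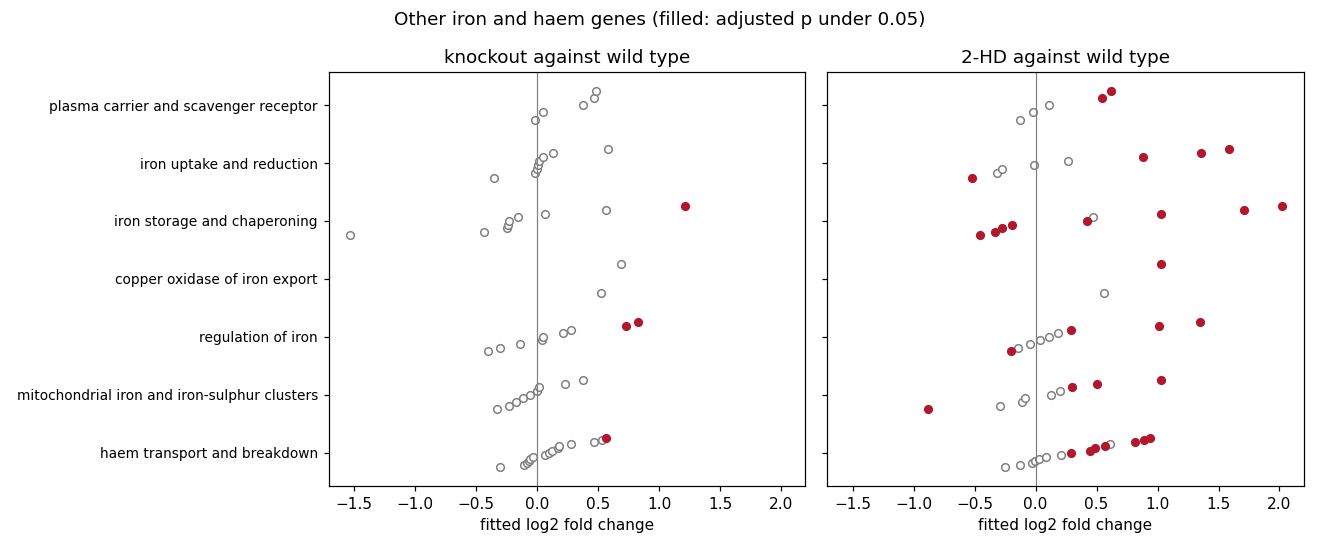
The plot gives the fitted log2 fold change of the 57 other iron and haem entries by role, in the knockout (left) and with 2-HD (right) against wild type. Filled points have an adjusted p under 0.05, 4 on the left and 30 on the right, of which 7 lie below 0.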

How the data were processed

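RNA sequencing of 13 larval libraries was deposited by the authors as whole-number counts of reads per gene symbol, not normalized. HISAT2 2.2.1, featureCounts 2.0.1 and Trim Galore 0.6.7 were used with build GRCz11, per the submitters' processing notes. The annotation, strand setting and treatment of multiply mapped reads are not given in the sources used here, so counts of similar copies are uncertain. Each library was assigned by its description label.

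The fit used edgeR 4.0.16 (R 4.3.3): filterByExpr with a minimum count of 10, TMM factors, and a quasi-likelihood fit of 3 group means to all 13 libraries, with a common biological coefficient of variation of 0.151. Adjusted p-values are Benjamini-Hochberg values over 22158 entries from this fit. Standard errors come from the fold change and its F statistic. Log2 CPM for correlations used a prior count of 2. Libraries of a group differed by more than sampling noise (chi-square per degree of freedom 4.73 to 24.8), and none was merged. The steps were run on counts simulated as independent libraries, with the spread estimated from these data. That run cannot show how far the calls depend on single libraries.

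The members, lists and alternatives were chosen with earlier results of these data known. All members are named. From the wider list the text names each gene called in the knockout and, per role, up to 3 called genes with the largest change with 2-HD. It also names the first 2 genes of each marker list and the 2 entries most like each member. Of the genes these rules name, 2 are not reported here. Further genes (hpxb, fth1b, ncoa4, pcbp2, pcbp3, pcbp4, blvrb, flvcr2b, pgrmc1, hebp2, hmox2a, epas1b, apobb.1 and, in the comparison of knockout with wild type, single genes that were not called) were named after their values were seen. Of the 66 member and list symbols with an entry, 66 matched RefSeq assembly GRCz12tu, used for gene order only. Alternatives were DESeq2 1.42.0, other scaling, no filter, 2-group fits, single libraries left out and the replicate number as a block.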

Additional observations from a re-analysis of the deposited data

Results flagged for a closer look

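In 62 checks of 1 gene in 1 group of 5 libraries, 3 libraries lay far from the others of their group; chance marks about 1 in 20 such groups. For the second row of fthl27, wild type replicate 5 had 1.85 CPM, with the other 4 wild-type libraries at 0.446 to 0.670 CPM. For the same entry, 2-HD replicate 5 had 10.6 CPM, with the other 4 at 0.516 to 1.99 CPM. For slc25a37, wild type replicate 10 had 0.279 CPM, or 5 counts, with the other 4 at 0.751 to 0.836 CPM. Groups of 3, and so the hamp level of knockout replicate 7, were not checked.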

How the results depend on the processing

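No result named here changed sign while called, and the cause of the differences below was not tested. The wider iron list had 4 calls in the knockout against wild type; it had 0 with only the 2 groups fitted and with the replicate number as a block, 7 without wild type replicate 14 and 2-HD replicate 1, 7 with DESeq2, and 0 to 5 when 1 library was left out (0 without knockout replicate 3 or 7, 2 without wild type replicate 10). Its 30 calls with 2-HD were 16 under the block (steap3, the second fthl31 row, ireb2, slc25a37 and iscub among those lost) and 28 to 35 when 1 library was left out. Its 7 calls between knockout and 2-HD were 15 without wild type replicate 14 and 2-HD replicate 1, 12 with DESeq2, 3 under the block and 1 to 14 when 1 library was left out. Of the members, 0 were past the threshold in the knockout, 1 with scaling by library totals alone, 2 with DESeq2 and 0 to 1 when 1 library was left out (1 without wild type replicate 3 or 5). With 2-HD the 8 members became 5 to 8 when 1 library was left out (5 without wild type replicate 10 and without 2-HD replicate 3 or 5) and 6 under the block. Between knockout and 2-HD the 4 became 0 to 4 (0 without knockout replicate 2 or 3, 1 without knockout replicate 7, 2 without 2-HD replicate 2 or 4) and 3 under the block.

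Over all entries the knockout gave 1322 calls, but 2 with the replicate number as a block, 3 without knockout replicate 3 and 4 without knockout replicate 7. It gave 102 with only the 2 groups fitted and 2406 with DESeq2. With 2-HD the 9398 calls over all entries became 4230 under the block, and the 1547 between knockout and 2-HD became 333. These 1547 were 3494 without wild type replicate 14 and 2-HD replicate 1, and 2390 with DESeq2. Same-numbered libraries of different groups correlated at -0.00416 to 0.264 after group means were removed. Differently numbered libraries were not correlated, so these values cannot decide whether the numbers pair libraries. Only the numbers 2, 3 and 5 are shared between groups, so under the block libraries with other numbers add nothing to the comparisons. In that fit hpxa had a log2 fold change of 2.48 with 2-HD and 0.35 in the knockout. Without 2-HD replicate 5 the second row of fthl27, lower in the knockout than with 2-HD (-0.58), was higher (0.80), neither value being called. Depth limits hamp, hpxa in wild type, fthl29 in the knockout and the first hp row, all with few counts. It also limits 4 other entries in wild type. These are the second fthl31 row (1 to 8 counts), slc25a37 (5 to 15), the second fthl27 row (8 to 34) and steap3 (14 to 23).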
